A study of Mus musculus with 3 samples.

Results

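The cells described here were those of mouse skin that carry genes of vascular smooth muscle and pericytes, the contractile and supporting cells of the blood vessel wall. They were found by 6 marker genes, Rgs5, Notch3, Myh11, Des, Tagln and Acta2: a cell needed at least 1 unique molecular identifier (UMI, a tag that counts each captured RNA molecule once) of at least 3 of them, among which Rgs5, Notch3 or Myh11, no UMI of Pecam1 (endothelium) or Ptprc (leukocytes), fewer than 30 UMIs of Krt5 and Krt14 together (keratinocytes) and fewer than 2 of the 4 genes Col11a1, Lrrc15, Tnmd and Acan (dermal sheath and tendon-like cells). Of 23292 kept barcodes, 383 met the rule. There were 192 in the metformin library, which is 1.64% of its kept barcodes (exact binomial 95% interval 1.41 to 1.88%), against 191 in the control library, which is 1.65% (1.43 to 1.90%).

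The study profiled skin of C57BL/6 mice at 7 weeks of age by droplet single-cell RNA sequencing of 3′ ends. Its 3 groups were treated with metformin, treated with an agent named Shi-Bi-Man, or control, with 1 library each. The metformin and control libraries are compared here, and the expression of the Shi-Bi-Man library was not analysed here. Metformin is a biguanide known as a blood glucose-lowering drug. The labels give neither the dose, route and duration of treatment nor the number or sex of the animals, and say nothing of what the controls received. The extraction label speaks of another species, whereas the gene identifiers are those of mouse. With 1 library per condition no difference between conditions could be tested, and metformin cannot be told apart from anything else that differed between the 2 libraries. All intervals below are 95% intervals that cover counting error only.

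The metformin library held 12092 barcodes with a median of 6540 UMIs, against 12108 barcodes with a median of 3939 UMIs in the control library. The 2 libraries differed in make-up. Fibroblasts were 12.5% of the kept barcodes in metformin and 34.0% in control, keratinocytes 35.8% and 23.3%, and dermal sheath cells 4.84% and 1.74%. The nearly even shares of the 383 cells are thus parts of unlike wholes. Among the 383 cells depth was nearly even, with a median of 3809 UMIs in metformin cells and 3880 in control cells, and a median of 1670 detected genes in both. They gave 889298 UMIs in the metformin library and 902974 in the control library. Xist, which is transcribed from the inactive X chromosome, was detected in 87.0% of the metformin cells and 86.9% of the control ones, while the Y-linked genes Ddx3y, Uty, Kdm5d and Eif2s3y had 0 UMIs in both. The 2 libraries shared 41 barcodes, and 1 control barcode among the 383 was also present in the metformin library.

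Pericytes sit on capillaries within the basement membrane that they share with the endothelium, and they are kept there by Pdgfb from endothelial cells acting on Pdgfrb. Vascular smooth muscle cells ring arterioles and veins and set vessel width: calcium and calmodulin activate myosin light chain kinase, and actin and smooth muscle myosin then shorten the cell. Both respond to Notch signals through Notch3. Skin holds a further smooth muscle, the arrector pili, which raises the hair, is attached to the hair follicle bulge and shares the contractile proteins of the vessel wall without being part of it.

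Myh11 and the Notch3 receptor stood far above their level in the 5 other classes of skin cell compared. Rgs5 was also carried by endothelial cells at a lower level, and Kcnj8 by fibroblasts at a similar one. Levels are given as CPM, the UMIs of a gene per 1000000 UMIs summed over the cells of a class in 1 library. Myh11, the smooth muscle myosin heavy chain, was at 2793.2 CPM in metformin and 2815.1 CPM in control cells, and was detected in 90.6% and 90.1% of them. In endothelial cells of the same libraries (231 metformin and 167 control) it was at 34.8 and 46.4 CPM. Rgs5, a regulator of G protein signalling typical of pericytes, had 1543.9 CPM in metformin and 1188.3 CPM in control cells. Endothelial cells carried 295 and 277 CPM of Rgs5, fibroblasts 0.513 and 0.314 CPM. Notch3, the receptor that gives the vessel wall its Notch response, reached 400 CPM in metformin and 380 CPM in control cells, and keratinocytes held 11.6 and 11.8 CPM. These 3 genes belong to the rule, so that their levels describe how the cells were chosen. Acta2 and Tagln, also of the rule, were less confined to these cells in the metformin library. There the other kept barcodes held 13490 UMIs of Acta2 and 11688 of Tagln, and the folds over them were 102 and 88.4. In the control library the other kept barcodes held 1981 and 3615 UMIs, with folds of 564 and 217. Thinned to 1500 UMIs per cell, which left out 13 metformin and 9 control cells, Rgs5 was found in 52.5% of metformin cells (44.9 to 60.01%) and 42.9% of control cells (35.6 to 50.4%). The same share in thinned fibroblasts, which should lack Rgs5, was 0.154% and 0.0589%, their median depth before thinning being 3230.5 UMIs in metformin and 2774.5 UMIs in control.

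**Figure D1:**
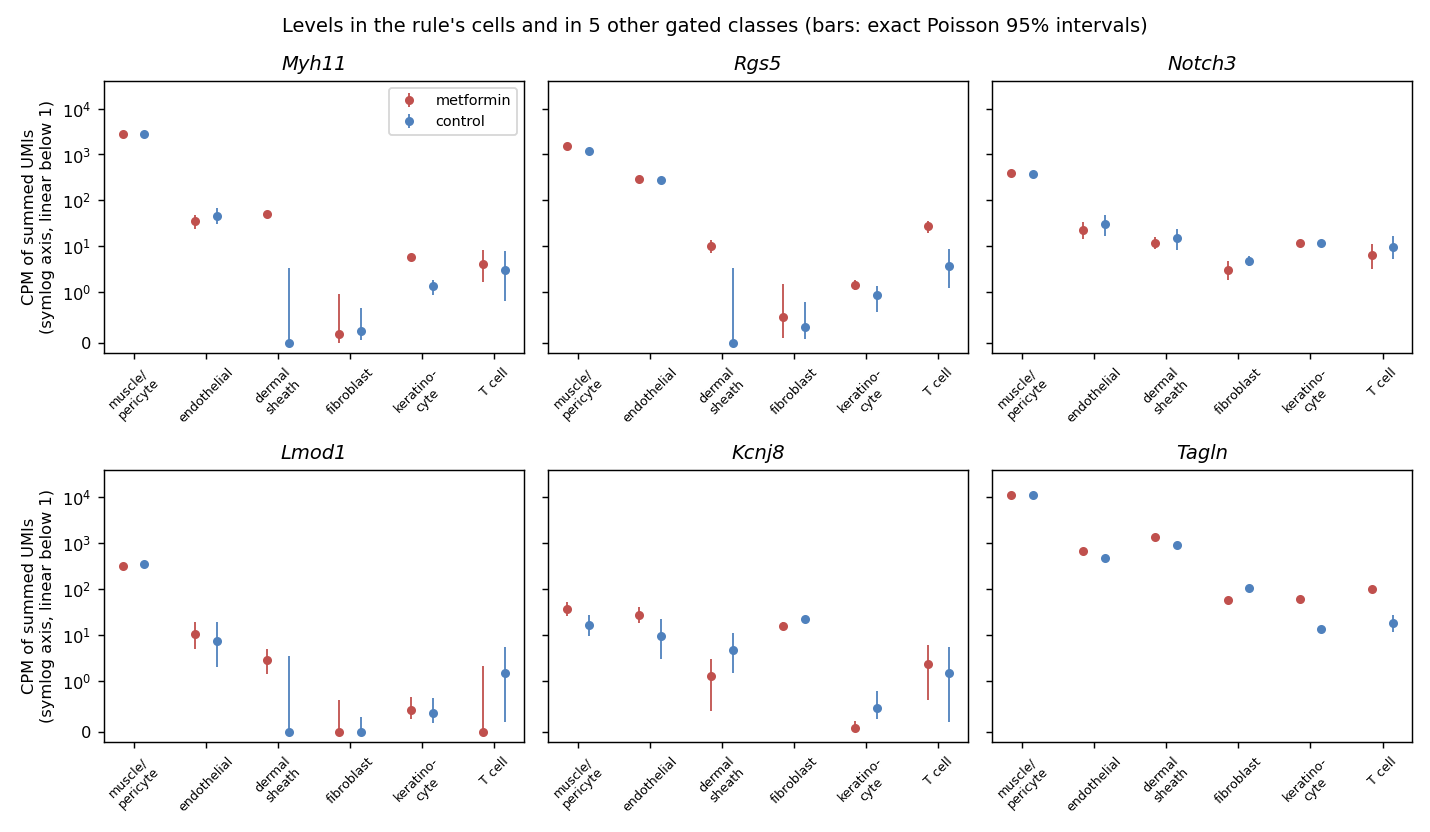
Each point is the CPM of 1 gene in 1 cell class of the metformin (red) or control (blue) library, on a symlog axis that is linear below 1, with exact Poisson 95% intervals. Myh11, Rgs5, Notch3, Tagln and Lmod1 are highest in the muscle and pericyte cells, whereas Kcnj8 in fibroblasts (15.6 and 22.4 CPM) is of the order of its level in these cells.

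Among the genes outside the rule with the highest folds over other cells were several of contraction and its ion supply. Lmod1, a leiomodin that starts actin filaments, was at 325 CPM in metformin and 358 CPM in control cells and at 0 CPM in the fibroblasts of both libraries. Over all other kept barcodes Lmod1 was 689-fold higher in metformin and 1043-fold higher in control cells. Pln, phospholamban, which holds back the calcium pump of the sarcoplasmic reticulum, was 557-fold and 823-fold higher, and Kcnmb1, the smooth muscle subunit of the large-conductance potassium channel, 440-fold and 1757-fold higher. Jph2, which ties the sarcoplasmic reticulum to the plasma membrane, was 378-fold and 835-fold higher. Other genes among the 15 with the highest lower fold were Rergl, Hspb7, Map3k7cl, Synpo2, Mybpc1, Kcnk3, BC051019, Gm13861, the olfactory receptors Olfr558 and Olfr78, and H2-M9. H2-M9 led by fold (1333-fold in metformin, 1266-fold in control cells), but 41 of its control UMIs came from 1 cell. These folds describe cells selected by related genes and carry no test.

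Cells at the limit of the rule were few. Exactly 3 of the 6 markers were found in 15 metformin and 15 control cells, all 6 in 65 and 64. Just outside the rule, 40 metformin and 39 control barcodes met the other conditions with 2 of the 6 markers, and Lmod1 and Cnn1 were at 0 CPM in both of these sets. Cells just inside, with 3 markers, likewise had 0 CPM of Lmod1 in both libraries, and Cnn1 at 0 CPM in metformin and 44.5 CPM in control cells. Abcc9 was at 261 and 122 CPM just inside the rule, and at 0 and 30.5 CPM just outside it. Leaving out cells with 3 markers, or those with 5 or more Krt5 and Krt14 UMIs, is among the alternatives given in the closing section. Only the keratin limit kept out 27 metformin and 4 control barcodes, and only the dermal sheath limit 27 and 7.

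The 383 cells fell into 5 sub-clusters by Leiden clustering on 2000 variable genes, and the label of vascular smooth muscle and pericytes held for part of them. Sub-clusters 4, 1 and 0, together 254 cells, carried Rgs5 and Notch3. Sub-cluster 2, 79 cells, carried neither, and sub-cluster 3, 50 cells, was led by epidermal genes. Sub-clusters were formed on these same genes, so that their differences are descriptions without a test. Cell numbers by library were 33 metformin and 14 control in sub-cluster 4, 44 and 45 in sub-cluster 1, 56 and 62 in sub-cluster 0, 40 and 39 in sub-cluster 2, and 19 and 31 in sub-cluster 3. Because genes that define sub-clusters 3 and 4 also differed between the libraries, no change in their size is read from these numbers.

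Sub-cluster 4 (47 cells, median 2680 UMIs) was pericyte-like, with 9 of 11 pericyte markers enriched. Its leading gene was Colec11, a collectin of innate immunity, at 390 CPM in 46.8% of its cells and 0 CPM in sub-clusters 0, 1 and 2. Abcc9 and Kcnj8 encode the sulfonylurea receptor and the pore subunit of one ATP-sensitive potassium channel, and they lie next to each other on the minus strand of chromosome 6 (GRCm38, Kcnj8 at chr6:142564837-142571614 and Abcc9 at chr6:142587862-142702315). Abcc9 was at 496 CPM in sub-cluster 4 and between 0 and 12.5 CPM in the other 4, while Kcnj8 was at 221 CPM against 2.12 to 22.9 CPM. Vtn, vitronectin, had 588 CPM, with 103 CPM in sub-cluster 1 as the next highest. Id4, an inhibitor of basic helix-loop-helix factors, had 978 CPM in sub-cluster 4 and at most 117 CPM elsewhere. Pln was at 0 CPM here, and Myh11 was lower (748 CPM) than in any other sub-cluster. The sub-cluster thus held the strongest channel genes of pericytes together with the weakest contractile genes.

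Sub-cluster 0 (118 cells, median 3567 UMIs) was vascular smooth muscle-like, with 4 of 10 markers of that type (Tagln, Lmod1, Pln and Mustn1) enriched, but 6 of 11 pericyte markers (Notch3, Higd1b, Ndufa4l2, Cox4i2, Rgs4 and Cspg4) were enriched as well, so that the name is weakly held. Pln was at 607 CPM in 70.3% of its cells, against 219 CPM in sub-cluster 1 and 0 CPM in sub-clusters 2 and 4. Tcf15, a basic helix-loop-helix factor, was at 445 CPM, against 175 CPM in sub-cluster 1. Slc38a11, Gpr20, Olfr78, Trpv1 and Kcna5 were also among its 10 leading genes, the last a voltage-gated potassium channel and Trpv1 the heat and capsaicin channel of sensory neurons. Myh11 reached 3663.1 CPM and Acta2, smooth muscle actin, 20397.1 CPM, with Rgs5 at 1713.5 CPM and Notch3 at 762 CPM.

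Sub-cluster 1 (89 cells, median 3039 UMIs) met the marker count for a pericyte-like name with 7 of 11, but inflammatory and immediate early genes led it: Agt, Il6, Ccl2, Cxcl1, Rasd1 and Cxcl2 stood first. Agt encodes angiotensinogen, the precursor of angiotensin. Il6 was at 584 CPM and Cxcl1 at 903 CPM, against 9.26 and 34.7 CPM in sub-cluster 0. Sub-cluster 4 also held both, with 397 CPM of Il6 and 741 CPM of Cxcl1. Rgs5 was at 3624.3 CPM, above sub-cluster 4 (3215.4 CPM), and Myh11 at 2212.1 CPM lay between sub-clusters 4 and 0. At Leiden resolution 1, sub-cluster 1 parted into a set led by Hk2, Apold1 and Bcr and one led by Agt, Car4, Iigp1 and Ifi47.

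Sub-cluster 2 went against the vascular label in part, with 0 of 11 pericyte markers enriched. It nevertheless had 7 of 10 vascular smooth muscle markers enriched (Myh11, Acta2, Cnn1, Lmod1, Casq2, Kcnmb1 and Smtn). None of its 79 cells had a UMI of Rgs5 or Notch3 among 472621 UMIs in all, so that each was below 6.35 CPM. A count of 0 allows up to 3.80% of such cells to have a UMI, which limits detection and not expression in single cells. Abcc9, Vtn, Pln, Rgs4, Tcf15 and Olfr78 were also at 0 CPM. Several contractile genes were at their highest: Acta2 at 25917.2 CPM, Myh11 at 4697.2 CPM and Des at 4269.8 CPM. Des, the intermediate filament protein of muscle, was at most at 787 CPM in the other sub-clusters. This did not hold for all of them, since Pln was at 0 CPM, and Tagln and Mustn1 were enriched in sub-cluster 0 and not here. Actg2, the enteric-type smooth muscle actin, was at 2900.8 CPM in 97.5% of cells, and its next highest level was 241 CPM in sub-cluster 0. Cnn1, calponin, was at 829 CPM and Synpo2, an actin-binding Z-disc protein, at 1515.0 CPM. Its leading genes included Ckm, muscle creatine kinase (421 CPM), Bche, butyrylcholinesterase (525 CPM), Nptx2, a neuronal pentraxin (783 CPM), Scx, the tendon factor scleraxis (421 CPM), and Pcp4, a calmodulin regulator (745 CPM). Ckm, Bche and Scx were at 0 CPM in sub-clusters 0, 1 and 4. All 6 of the arrector pili muscle markers were enriched. The sub-cluster was left unnamed because its 10 leading genes held the skeletal muscle marker Ckm and no arrector pili marker. It is called here the Rgs5-negative smooth muscle set. It was divided 40 to 39 between the libraries, and its cells were the deepest after those of sub-cluster 3, with a median of 6118 UMIs.

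Sub-cluster 3 (50 cells, median 7292 UMIs) mixed muscle genes with those of other skin cells. Krtdap, a differentiation gene of upper epidermis, led it at 4295.1 CPM, and Wif1, an inhibitor of Wnt signals among the dermal papilla markers, stood second at 357 CPM, with 0 UMIs in the other sub-clusters. It also held Dcn, the fibroblast proteoglycan decorin, at 1721.7 CPM, whereas Myh11 was at 957 CPM and Rgs5 at 286 CPM. Of the keratinocyte markers 8 of 9, and of the fibroblast markers 8 of 8, were enriched. At resolution 1 it parted into a fibroblast-like set led by Cilp, Spon2, Lum and Pi16 (5 metformin and 21 control cells) and a keratinocyte-like set led by Krtdap (14 metformin and 10 control cells). In the metformin cells of the whole set of 383, fibroblast markers summed to 1319 CPM against 3224 CPM in control cells, and keratinocyte markers to 1476 against 3601 CPM. Without sub-cluster 3 the sums were 631 against 364 CPM for fibroblast markers and 332 against 165 CPM for keratinocyte markers. Each comparison between conditions is therefore given for all 383 cells and, where it mattered, for the 333 cells (173 metformin and 160 control) outside sub-cluster 3, a choice made after the data were seen. Scrublet called 11 of the 192 metformin cells (5.73%) and 16 of the 191 control cells (8.38%) doublets, and these were kept.

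**Figure D2:**
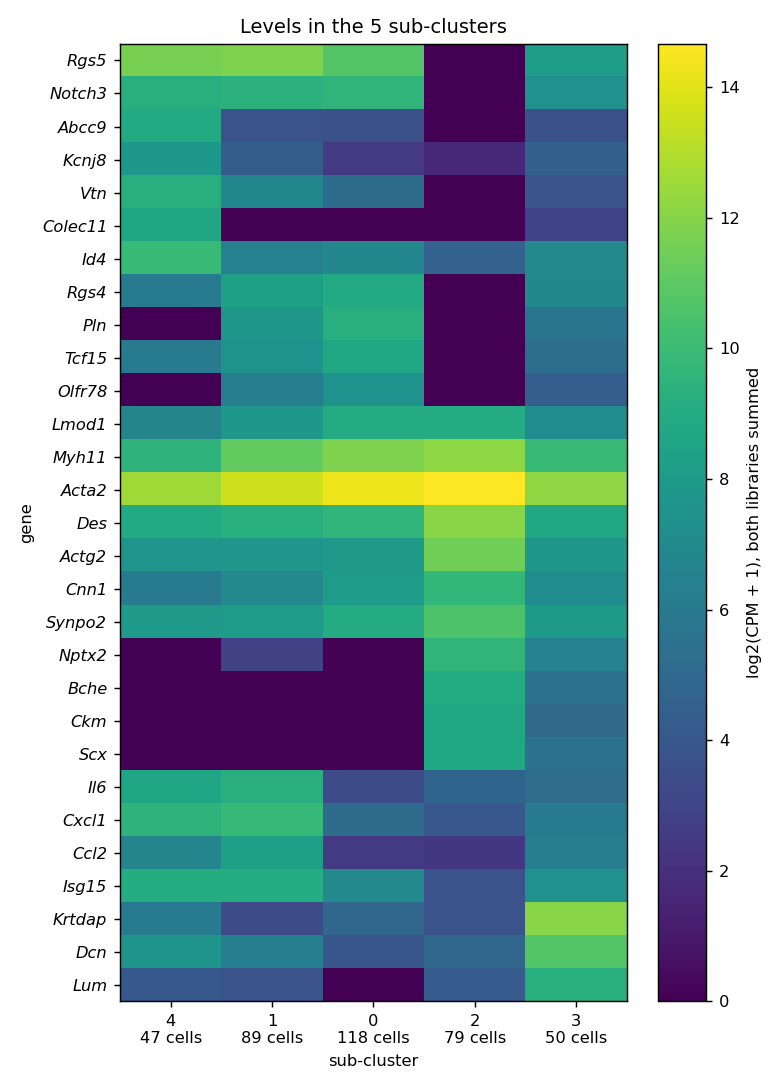
Rows are genes and columns the 5 sub-clusters, coloured by log2(CPM + 1) of the UMIs of both libraries summed. Rgs5 and Notch3 are at 0 in sub-cluster 2, where Actg2, Nptx2, Bche, Ckm and Scx are highest, Abcc9, Kcnj8 and Colec11 are highest in sub-cluster 4, and Krtdap, Dcn and Lum in sub-cluster 3.

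Scores summed per cell over genes that the rule did not use gave opposite extremes to sub-clusters 2 and 4. Over 20 contractile genes, the median was 641 UMIs per 10000 in sub-cluster 2, 454 in sub-cluster 0, 237 in sub-cluster 1, 137 in sub-cluster 3 and 104 in sub-cluster 4. Over 12 pericyte genes it was 41.0 in sub-cluster 4, 27.5 in sub-cluster 0, 23.3 in sub-cluster 1, 8.48 in sub-cluster 3 and 6.13 in sub-cluster 2. Sub-cluster 0 thus scored above sub-cluster 1 for pericyte genes, unlike for Rgs5 and Vtn. The ranges overlapped: contractile scores ran between 25.3 and 495 in sub-cluster 4 and between 125 and 804 in sub-cluster 0. Over all cells of a library, the median contractile score was 372 in metformin and 380 in control cells, and the median pericyte score 19.8 and 17.2.

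**Figure D3:**
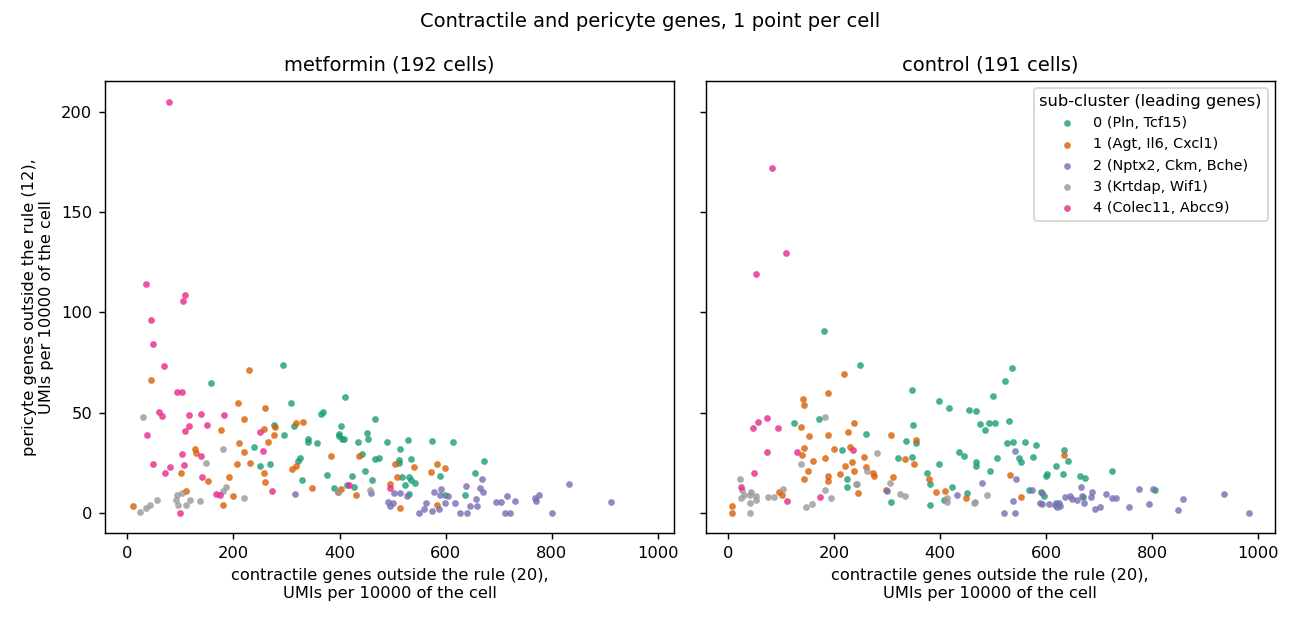
Each point is 1 cell of the metformin (left) or control (right) library, with its UMIs of 20 contractile genes per 10000 on the x axis and of 12 pericyte genes on the y axis, coloured by sub-cluster. Sub-cluster 2 lies at high contractile and low pericyte scores, sub-cluster 4 at the opposite end, and sub-clusters 0 and 1 between them in both libraries.

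Between the conditions, expression over the 383 cells was centred on no difference. Of 14655 genes detected, 7948 had at least 20 UMIs in both libraries together, and their median log2 ratio of metformin over control was 0.02. A ratio of 2-fold or more was seen upward in 287 genes, which is 3.61%, and downward in 346, which is 4.35%, and in either direction in 7.96%. Outside sub-cluster 3, 6684 genes were measured, of which 2.36% were at least 2-fold higher and 2.17% at least 2-fold lower. Counts for the gene lists below are read against these shares.

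Pericyte genes were on balance slightly higher in metformin cells. Of 14 measured, 10 were higher and 4 lower, with 4 past 2-fold higher (background 3.61%) and none past 2-fold lower, and the median log2 ratio was 0.14. The higher ones include Rgs5 and Notch3, which the rule used, and the median without these was also 0.14. Without sub-cluster 3, 8 of 13 were higher, 2 of them past 2-fold (background 2.36%), with a median of 0.09. Rgs5, the most abundant of the list, had a ratio of 1.30 (1.20 to 1.41), and 1.17 without sub-cluster 3. Kcnj8 had 33 UMIs (37.1 CPM) in metformin and 15 UMIs (16.6 CPM) in control cells, a ratio of 2.23 (1.18 to 4.43). Its channel partner Abcc9 had 51 and 28 UMIs, a ratio of 1.85 (1.14 to 3.05). Vtn, a cell attachment protein of the matrix, was at 101 CPM in metformin and 45.4 CPM in control cells, a ratio of 2.23 (1.52 to 3.31). Steap4, a metalloreductase, and Anpep, aminopeptidase N, were the other 2 past 2-fold, on 25 against 10 and 14 against 7 UMIs. The more abundant Mcam (425 against 472 CPM), Ndufa4l2 (425 against 454 CPM) and Pdgfrb (157 against 163 CPM) had intervals that included 1. Higd1b was at 84.3 CPM in metformin and 113 CPM in control cells, with a ratio of 0.747 (0.547 to 1.02). In other classes of the 2 libraries the list had a median of 0.15 in endothelial cells, 0.14 in dermal sheath cells and -0.19 in fibroblasts.

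Within sub-cluster 4, 33 metformin and 14 control cells, the pericyte list had a median log2 ratio of -0.15, with 4 of 11 measured genes higher. There Kcnj8 was at 226 CPM in metformin and 211 CPM in control cells, and Abcc9 at 451 and 608 CPM. Vtn (698 against 317 CPM) and Id4 (1128.0 against 607.7 CPM) were higher in metformin cells inside sub-cluster 4 too. After thinning, Kcnj8 or Abcc9 was found in 10.1% of metformin cells (6.07 to 15.4%) and 6.04% of control cells (3.06 to 10.6%), intervals that overlap, while the unthinned shares were 17.7% and 7.85%. In a summed value, more cells of this kind and more RNA per cell cannot be told apart.

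Contractile genes were almost all slightly lower in metformin cells, none by 2-fold. Of 24 measured, 20 were lower and 4 higher, with a median log2 ratio of -0.13, against 0.02 over all measured genes. The 24 include Acta2, Tagln, Myh11 and Des, which the rule used, and without these the median was -0.14. Acta2 was at 15126.5 CPM in metformin and 15956.2 CPM in control cells, a ratio of 0.948. Tagln, transgelin, was at 11334.8 and 11184.2 CPM. Myl9, the regulatory light chain whose phosphorylation starts contraction, was at 5450.4 and 5618.1 CPM, and Mylk, the kinase that phosphorylates it, at 2554.8 and 2870.5 CPM with a ratio of 0.890. Des was at 1411.2 CPM in metformin and 1719.9 CPM in control cells, a ratio of 0.821 (0.761 to 0.884). Synpo2 (0.799), Smtn, smoothelin (0.791), Synm, the desmin partner synemin (0.777), and Casq2, calsequestrin (0.689, 0.364 to 1.28), had the lowest ratios. Tpm1, tropomyosin, was higher, at 1.09 (1.04 to 1.15). The sign differed among sub-clusters: the median log2 ratio was -0.16 in sub-cluster 0 and -0.12 in sub-cluster 2, but 0.34 in sub-cluster 1, where 19 of 23 genes were higher, and 0.44 in sub-cluster 4. Without sub-cluster 3, 21 of 24 were lower with a median of -0.12. Endothelial cells and fibroblasts of the same libraries had medians of -0.18 and -0.14 for this list. A slightly lower median was thus not particular to the cells described here. Dermal sheath cells went the other way, with a median of 0.79. There 10 of 22 measured genes were past 2-fold higher in metformin and none past 2-fold lower.

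Contractile genes are classically driven by serum response factor with myocardin, which bind the CArG box, CC, then 6 bases of A or T, then GG, a pattern that reads alike on both strands. It was searched in windows of RefSeq promoters of GRCm38.p6 that span 250 bases before to 50 bases after each start. Of 20 contractile genes with a promoter there, 2 held the box, Myl6 and Myl9, which is 10%, against 488 of 27025 genes in all (1.81%). The share rests on 2 genes and was not particular to this list. It was 14.3% in the immediate early genes (2 of 14) and 8.33% in the transcription factors of the vessel wall (1 of 12), while several other lists held none. A match is a description of letters and not a bound site, and no match says only that these letters are not in this window. The Myl9 promoter is shown because Myl9 is among the most abundant contractile genes of the 383 cells. It runs over the 190 bases before the start, chr2:156775274-156775463 on the plus strand, with the box in capitals and its first base at -161.
Myl9: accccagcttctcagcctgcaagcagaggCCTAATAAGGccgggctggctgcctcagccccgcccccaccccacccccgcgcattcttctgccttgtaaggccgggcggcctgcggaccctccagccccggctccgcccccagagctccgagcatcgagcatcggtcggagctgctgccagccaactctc

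Transcription factors of the vessel wall and the Notch pathway showed no common direction, with 10 higher and 9 lower of 19 factors (median log2 ratio 0.01) and 6 higher and 5 lower of 11 Notch genes (0.08). Tbx18, a T-box factor used to trace pericytes and smooth muscle, had 21 UMIs in metformin and 8 in control cells, a ratio of 2.67 (1.13 to 6.96). Heyl, a Notch target of the vessel wall, had 16 and 35 UMIs, a ratio of 0.464 (0.240 to 0.861), and 0.517 (0.256 to 1.01) without sub-cluster 3. Of the most abundant factors, Mef2c was level (432 against 434 CPM). Ebf1 was somewhat higher in metformin over all cells (526 against 454 CPM), with a ratio of 1.04 (0.900 to 1.21) without sub-cluster 3. Klf4, a factor of both dedifferentiating smooth muscle and epidermis, had a ratio of 0.659 (0.541 to 0.801) over all cells and 0.961 (0.744 to 1.24) without sub-cluster 3.

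Within the Notch pathway, the ligand and the receptors differed unequally. Jag1, a ligand that smooth muscle cells both send and receive, was at 335 CPM in metformin and 238 CPM in control cells, a ratio of 1.41 (1.18 to 1.69), and 1.25 (1.03 to 1.52) without sub-cluster 3. Notch3 itself, a gene of the rule, was at 400 and 380 CPM. Notch2 was at 97.8 CPM in metformin and 159 CPM in control cells, a ratio of 0.613 (0.465 to 0.806). The target Hes1 had 394 and 499 CPM, a ratio of 0.788 (0.683 to 0.908), and with Heyl it was among the lower members.

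Ion channels and calcium-handling genes were also mixed, 9 higher and 12 lower of 21, with a median log2 ratio of -0.05. Besides Kcnj8, already given, the largest difference was in Ryr2, the calcium release channel of the sarcoplasmic reticulum, with 11 UMIs in metformin and 26 in control cells, a ratio of 0.430 (0.192 to 0.900). Atp2a2, the calcium pump that Pln restrains, was at 630 and 723 CPM, a ratio of 0.871 (0.776 to 0.976). Kcnmb1 (82.1 against 75.3 CPM) and Kcna5 (25.9 against 29.9 CPM) had intervals that included 1.

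Receptors for vasoactive substances split likewise, 14 higher and 12 lower of 26, with 2 past 2-fold each way and a median of 0.09. Both endothelin receptors had more UMIs in metformin cells: Ednra, which constricts, had 87.7 CPM against 67.6 CPM in control cells, a ratio of 1.30 (0.917 to 1.85), and Ednrb 25 against 11 UMIs, a ratio of 2.31 (1.10 to 5.20), and 2.17 (0.953 to 5.38) without sub-cluster 3. Adra2a, an adrenoceptor and a leading gene of sub-cluster 4, had 18 and 8 UMIs. F2r, the thrombin receptor, was among those past 2-fold lower, with 6 UMIs in metformin and 16 in control cells, a ratio of 0.381. Outside sub-cluster 3 only 2 and 4 UMIs of F2r remained, too few for a ratio. Lower ratios that did not pass 2-fold were those of Tbxa2r, the thromboxane receptor (18 and 30 UMIs), and Prkg1, the cyclic GMP-dependent kinase (28 and 47 UMIs). Ramp1, the partner of the receptor for calcitonin gene-related peptide, was the most abundant of those named, at 533 and 477 CPM.

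The signals through which mural cells talk to endothelium had a median log2 ratio of -0.01, with 12 of 24 genes higher and 12 lower. Angpt1, the ligand by which pericytes quiet the endothelium through Tek, had 24 UMIs in metformin and 11 in control cells, a ratio of 2.22 (1.04 to 5.01), and 1.86 (0.831 to 4.45) without sub-cluster 3. Tgfb1 was higher at 42 against 23 UMIs, whereas Tgfb3 was lower at 72 against 123 UMIs, a ratio of 0.594 (0.438 to 0.801) that was 0.596 without sub-cluster 3. Most of the Tgfb3 difference lay in sub-cluster 0, with 23 metformin and 65 control UMIs. Igf1 had 6 UMIs in metformin and 25 in control cells, and Pdgfra, the fibroblast-type receptor, 10 and 29, but outside sub-cluster 3 only 2 and 1 UMIs of Igf1 and 1 and 1 of Pdgfra remained, too few for a ratio.

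Basement membrane genes (10 of 16 higher, median 0.06) and integrins with their adhesion partners (11 of 19 higher, median 0.08) had no member past 2-fold. Col4a1, the collagen of the vascular basement membrane, was at 469 CPM in metformin and 418 CPM in control cells. Vcl, vinculin, which links integrins to actin, differed most, at 319 against 179 CPM, a ratio of 1.78 (1.46 to 2.17). Without sub-cluster 3 the Vcl ratio was 1.85, and in 4 of the sub-clusters it was 1.26 in sub-cluster 0, 2.26 in sub-cluster 1, 2.35 in sub-cluster 2 and 2.44 in sub-cluster 4. In the same libraries Vcl was at a ratio of 1.30 (0.885 to 1.94) in endothelial cells, and the interval of its ratio in fibroblasts ran between 0.872 and 1.14. Itga1, the collagen-binding alpha1 integrin of smooth muscle, had a ratio of 1.40 (1.12 to 1.75).

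Interstitial matrix genes gave opposite pictures with and without sub-cluster 3. Over all cells 19 of 23 were lower in metformin, 7 of them by at least 2-fold (background 4.35%), with a median log2 ratio of -0.47. Without sub-cluster 3, 15 of 19 measured were higher, 3 of them past 2-fold (background 2.36%), with a median of 0.47. Col1a1, the chief fibrillar collagen, was at 495 CPM in metformin and 997 CPM in control cells, a ratio of 0.496 (0.442 to 0.557), and without sub-cluster 3 the ratio was 2.47 (1.84 to 3.35). Dcn was at 197 and 715 CPM, a ratio of 0.275, and at 0.853 (0.515 to 1.41) without it. Postn, periostin, turned to 2.44 (1.45 to 4.24) after 0.541. In the Rgs5-negative smooth muscle set all 10 measured matrix genes were higher in metformin, with a median of 0.85, and Col1a1 had 44 against 7 UMIs there. In sub-cluster 4 Col1a1 had 93 UMIs in metformin and 19 in control cells. Summed fibroblast markers went the same way in both settings (1319 against 3224 CPM over all cells, 631 against 364 CPM without sub-cluster 3). They include Col1a1 and Dcn, read above, so that this is in part built in. Outside sub-cluster 3 the sum rested mostly on Col1a1 (170 and 64 UMIs) and Col1a2 (182 and 86). The other markers there were Dcn (33 and 36 UMIs), Dpt (28 and 24), Col14a1 (20 and 12), Lum (9 and 5), Pi16 (0 and 10) and Pdgfra (1 and 1). The part of fibroblast RNA in the result was not tested.

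**Figure D4:**
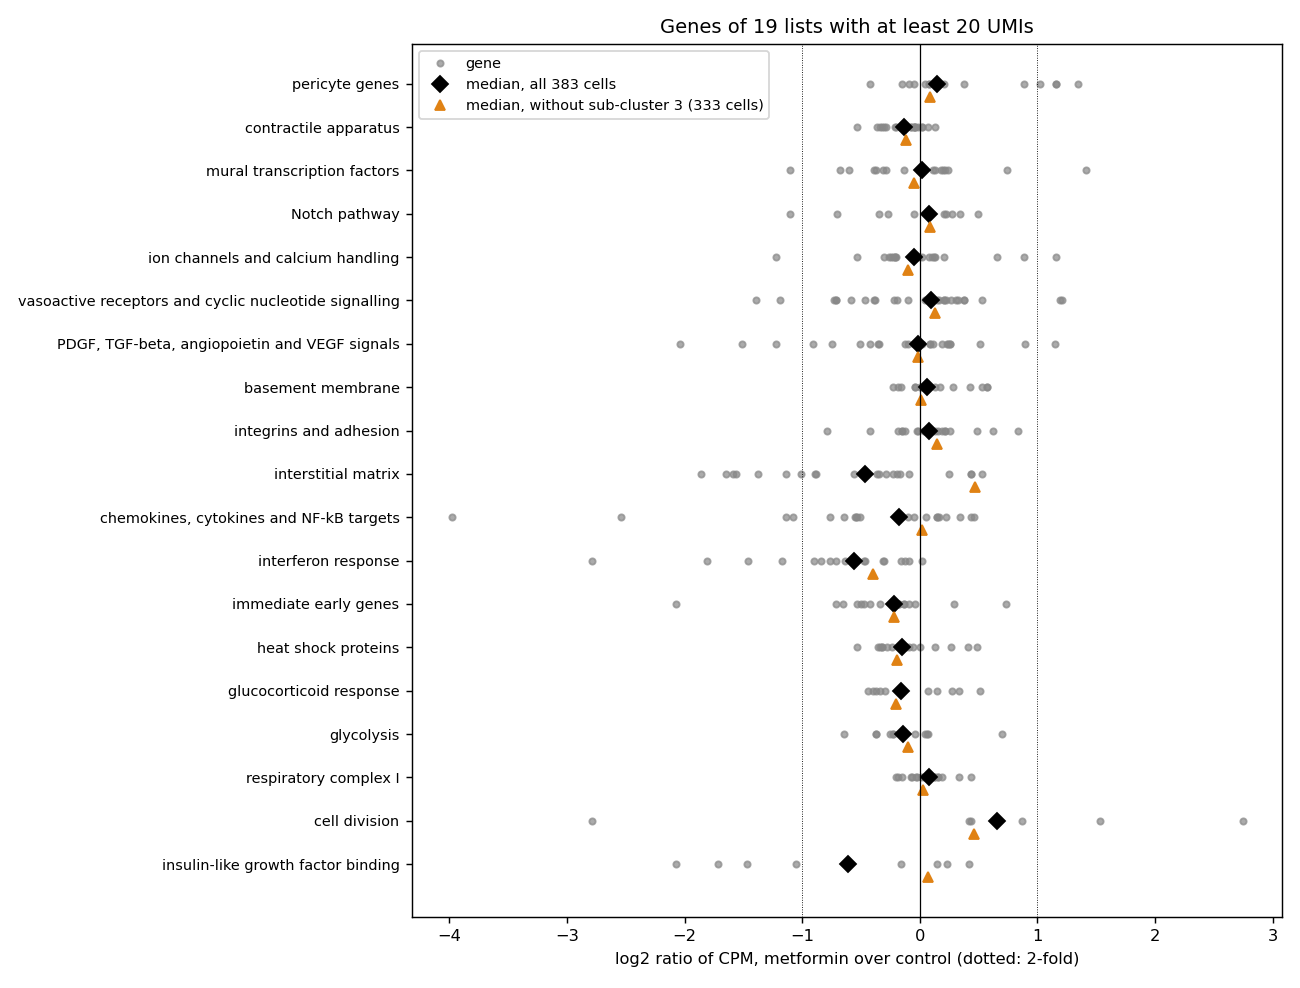
Each row is 1 of 19 gene lists, each grey point the log2 ratio of CPM in metformin over control of 1 gene with at least 20 UMIs, with the median over all 383 cells (black) and without sub-cluster 3 (orange). The median of interferon response genes is -0.56 and -0.40, and that of the interstitial matrix changes sign, at -0.47 and 0.47.

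Interferon response genes were lower in metformin cells. Of 20 measured, 19 were lower, 4 of them by at least 2-fold (background 4.35%), with a median log2 ratio of -0.56. Without sub-cluster 3, 17 of 18 measured were lower, 3 by at least 2-fold (background 2.17%), with a median of -0.40. Isg15, a ubiquitin-like protein made under interferon, had 99 UMIs (111 CPM, in 46 cells) in metformin and 276 UMIs (306 CPM, in 74 cells) in control cells, a ratio of 0.364 (0.287 to 0.460). Ifit1, which binds viral RNA, had 10 UMIs in 9 metformin cells and 70 UMIs in 29 control cells, a ratio of 0.145 (0.0667 to 0.283). The related Ifit3 had 9 and 32 UMIs, a ratio of 0.286 (0.120 to 0.612). Psmb9, a subunit of the immunoproteasome, had 14 and 32 UMIs, a ratio of 0.444 (0.219 to 0.856), and 0.558 (0.249 to 1.20) without sub-cluster 3. Rsad2, the antiviral protein viperin, was at 0 UMIs in metformin and 11 in control cells, under the minimum of 20. More abundant members differed less: Irf1, a transcription factor of the response, had 145 CPM in metformin and 237 CPM in control cells, a ratio of 0.612 (0.488 to 0.765), and Ifitm3 a ratio of 0.896. The ratio of B2m, the light chain of class I molecules, was 0.679 over all cells and 0.952 (0.819 to 1.11) without sub-cluster 3.

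Across the sub-clusters the interferon list had a median log2 ratio of -0.27 in sub-cluster 0, -0.78 in sub-cluster 1, -0.85 in sub-cluster 4 and -1.41 in sub-cluster 3, with at most 1 gene higher in each, and -0.05 in sub-cluster 2, where 3 of 7 were higher. Isg15 was mainly a gene of sub-clusters 4 and 1 (550 and 541 CPM) and was at 12.7 CPM in sub-cluster 2. In sub-cluster 4, Isg15 was at 268.6 CPM in metformin and 1241.9 CPM in control cells. Thinned to even depth, 16.8% of metformin cells held Isg15, against 25.8% of control cells. The same list was lower in other classes of the 2 libraries, with medians of -0.59 in endothelial cells, -0.46 in fibroblasts and -1.29 in dermal sheath cells, which share the control library with the cells described here. For Isg15 alone, the ratio was 0.871 (0.744 to 1.02) in endothelial cells and 0.680 (0.623 to 0.742) in fibroblasts. Macrophage markers summed to 25.9 CPM in metformin and 446 CPM in control cells, or 18.5 and 39.8 CPM without sub-cluster 3, and their part in the result was not tested.

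**Figure D5:**
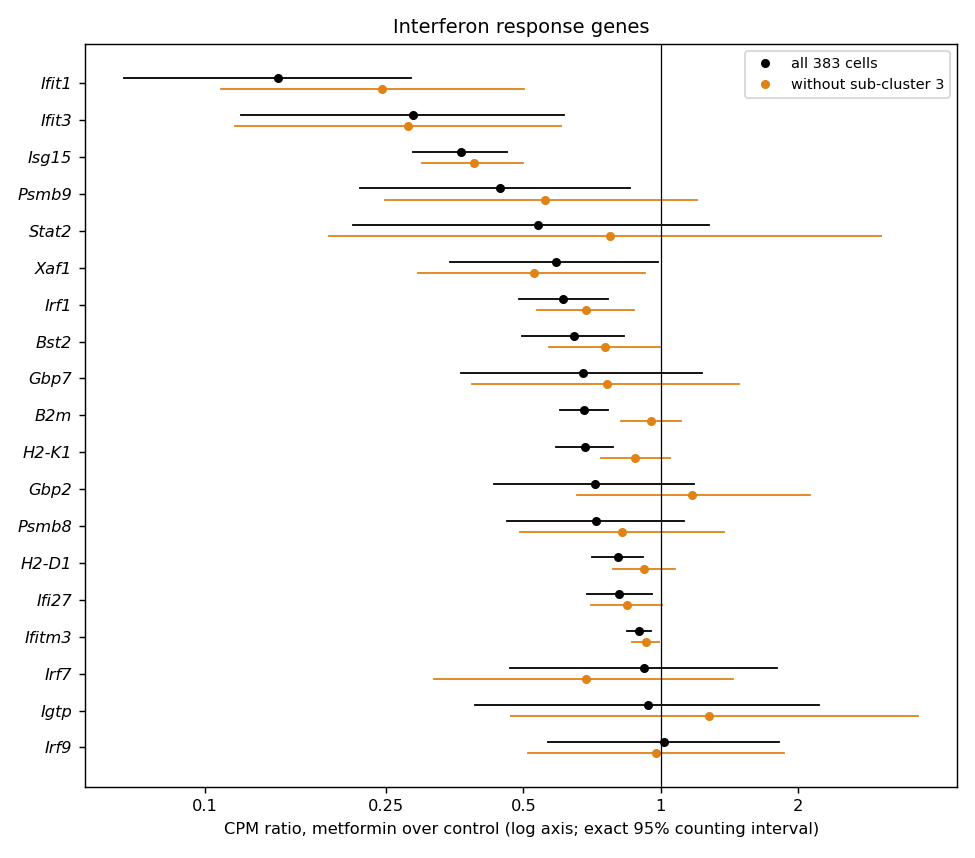
Points are CPM ratios of metformin over control on a log axis for 19 of the 20 interferon response genes measured, with exact 95% counting intervals, over all 383 cells (black) and without sub-cluster 3 (orange). Ifit1, Ifit3 and Isg15 lie lowest in both settings, at 0.145, 0.286 and 0.364 over all cells, and B2m comes close to 1 without sub-cluster 3.

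Many interferon response genes are switched on through the interferon-stimulated response element. Its core was searched as GAAANNGAAA on either strand, overlapping matches counted separately, in the promoter windows described above. It was present in 11 of the 19 listed genes with a promoter (57.9%), against 1079 of 27025 genes (3.99%). The search was added after the values of the list were known, and a match is no evidence of binding in these cells. The 4 promoters below are those of the genes at the lowest ratios, with Rsad2 at 0 UMIs in metformin cells. Each shows the 190 bases before the start, 5′ to 3′ on the strand of the gene, with matches in capitals, and TTTC marks a match on the opposite strand. Isg15 lies at chr4:156200819-156201008 on the minus strand, with 3 overlapping matches whose first bases are at -78, -72 and -66. Ifit1 lies at chr19:34640699-34640888 on the plus strand, with matches at -104 and -85. Ifit3 lies at chr19:34583339-34583528 on the plus strand, with matches at -156 and -122. Rsad2 lies at chr12:26456453-26456642 on the minus strand, with a match at -120.
Isg15: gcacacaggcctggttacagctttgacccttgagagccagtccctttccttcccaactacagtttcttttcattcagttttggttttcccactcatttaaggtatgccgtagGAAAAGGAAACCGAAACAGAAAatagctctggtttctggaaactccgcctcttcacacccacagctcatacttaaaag
Ifit1: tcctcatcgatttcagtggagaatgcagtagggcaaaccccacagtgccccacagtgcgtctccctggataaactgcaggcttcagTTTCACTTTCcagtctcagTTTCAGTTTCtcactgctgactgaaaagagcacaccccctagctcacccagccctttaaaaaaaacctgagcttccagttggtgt
Ifit3: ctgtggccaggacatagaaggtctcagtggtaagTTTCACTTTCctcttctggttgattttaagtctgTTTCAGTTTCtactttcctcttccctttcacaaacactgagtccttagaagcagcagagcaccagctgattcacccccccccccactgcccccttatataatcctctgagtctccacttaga
Rsad2: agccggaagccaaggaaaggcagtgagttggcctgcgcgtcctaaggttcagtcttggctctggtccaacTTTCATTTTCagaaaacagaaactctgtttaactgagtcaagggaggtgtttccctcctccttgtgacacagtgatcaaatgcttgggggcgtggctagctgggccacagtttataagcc

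Chemokines, cytokines and NF-kB targets were on balance lower in metformin over all cells but not outside sub-cluster 3. Of 21 measured, 13 were lower and 8 higher, with a median log2 ratio of -0.18. Past 2-fold, 4 were lower (background 4.35%) and none higher. Without sub-cluster 3, 9 were higher and 9 lower, 1 past 2-fold higher and 2 past 2-fold lower (background 2.36% and 2.17%), with a median of 0.02. The adhesion molecule Icam1 was the one higher there, with 23 and 9 UMIs and a ratio of 2.38 (1.06 to 5.84). Ccl2, which recruits monocytes, had 22 UMIs in 10 metformin cells and 130 UMIs in 16 control cells, a ratio of 0.172 (0.104 to 0.271). In sub-cluster 1 the Ccl2 counts were 3 and 98 UMIs, whereas in sub-cluster 4 they were 8 and 5. Cxcl1 and Cxcl2, ligands of neutrophils, had ratios of 0.638 (0.523 to 0.776) and 0.455 (0.285 to 0.709). Il6 had 109 UMIs in metformin and 162 in control cells, a ratio of 0.683 (0.531 to 0.876). Cebpb, a factor that drives such genes, was at 1073.9 and 1528.3 CPM, and Nfkbia, the NF-kB inhibitor that NF-kB itself induces, at 577 and 834 CPM. The share of thinned cells with Ccl2, Cxcl1 or Il6 was 20.1% in metformin (14.5 to 26.7%) and 23.6% in control cells (17.7 to 30.5%), intervals that overlap widely. Ccl7 had 2 and 32 UMIs, of which 68.8% of the control count came from 1 cell. In other classes of the 2 libraries the list had a median of -1.22 in dermal sheath cells, -0.63 in fibroblasts and -0.01 in endothelial cells.

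Immediate early genes, which respond within minutes to growth signals and also to tissue dissociation, were lower in 18 of 20 over all cells and in 16 of 20 without sub-cluster 3, with a median log2 ratio of -0.22 in both settings. Over all cells, Ctgf alone was past 2-fold (background 4.35%). Ctgf, a matricellular protein and target of YAP, had 50 UMIs in 25 metformin cells and 213 UMIs in 60 control cells, a ratio of 0.238 (0.172 to 0.326), and 0.248 (0.174 to 0.348) without sub-cluster 3. The greatest share of it came from sub-cluster 0, with 15 metformin and 109 control UMIs. Its relative Cyr61, also a YAP target, had the opposite sign, at 550 CPM in metformin and 450 CPM in control cells, a ratio of 1.22 (1.07 to 1.40). Ctgf was also lower in endothelial cells (0.661, 0.463 to 0.947) and fibroblasts (0.343, 0.314 to 0.373) of the metformin library. The abundant Fos (3831.1 against 3951.4 CPM) was almost level, and Egr1 (1283.0 against 1456.3 CPM) had a ratio of 0.881. In sub-cluster 1 none of the 19 measured genes was higher in metformin and the median was -0.48, while in sub-cluster 2 it was 0.12. The list was lower still in dermal sheath cells (median -0.83) and fibroblasts (-0.63) of the 2 libraries, and nearly level in endothelial cells (-0.05).

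Stress and energy genes differed little. Heat shock genes were lower in 11 of 16 with a median of -0.15, and none passed 2-fold. Hspb1 was at 2189.4 CPM in metformin and 2653.4 CPM in control cells, a ratio of 0.825 (0.777 to 0.876), whereas Hspb6, the small heat shock protein of relaxed smooth muscle, was higher, at 1.40 (1.10 to 1.79). Subunits of respiratory complex I, the mitochondrial complex that metformin is known to inhibit at high concentration, were higher in 13 of 20, with a median of 0.08 and none past 2-fold. The largest ratio was that of Ndufs1, 1.35 (0.877 to 2.11), followed by Ndufs8 at 1.26 (1.03 to 1.53). Glycolysis genes had a median of -0.14 over 13 genes and the glucocorticoid-responsive genes -0.16 over 11.

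Cell division and insulin-like growth factor binding were decided by few cells. Of 6 measured division genes, 5 were higher with a median of 0.65. Stmn1, stathmin, had 185 UMIs in metformin and 28 in control cells, a ratio of 6.71 (4.49 to 10.4), but 1.95 (0.911 to 4.42) without sub-cluster 3, where only 3 division genes kept 20 UMIs. All 21 UMIs of Ube2c were in 1 control cell. Igf binding genes had a median of -0.61 over 8 genes and 0.07 without sub-cluster 3. The 2 most abundant of them in mural cells, Igfbp7 (4592.4 against 4147.4 CPM) and Igfbp5 (1849.8 against 1383.2 CPM), were higher in metformin, Igfbp5 by a ratio of 1.34 (1.24 to 1.44), which was 1.27 without sub-cluster 3.

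The 12 highest ratios among well-measured genes were those of Vtn, Id4, U2af2, Sox4, Lgr4, Cks1b, C1qtnf12, Zrsr2, Rsrc1, Slc16a7, Vamp3 and Ttc14. The 12 lowest included Cilp, Ifit1, Calm4, Ly6c1, Ly6a, Ifi27l2a, Ctgf, Dmkn, Mmp2, Dsg1a and Krtdap. Of the lower set, Cilp (7 metformin and 90 control UMIs), Calm4 (117 and 803 UMIs) and Krtdap (381 and 1524 UMIs) are fibroblast or epidermal genes, and outside sub-cluster 3 they had 0 and 1, 15 and 12, and 13 and 16 UMIs. Dmkn, Dsg1a and Mmp2 likewise had only 9 and 8, 3 and 4, and 5 and 2 UMIs outside it. Ifi27l2a, an interferon-induced gene outside the list, was at 92.2 CPM in metformin and 391 CPM in control cells, a ratio of 0.236 (0.183 to 0.301), and 0.338 (0.247 to 0.457) without sub-cluster 3. Ly6a, the stem cell antigen Sca-1 and itself interferon-induced, had 41 and 209 UMIs, with a ratio of 0.383 (0.219 to 0.648) outside sub-cluster 3. Of the higher set, Id4 was at 205 CPM in 72 metformin cells and 91.9 CPM in 43 control cells, a ratio of 2.23 (1.71 to 2.92), and 2.28 (1.69 to 3.12) without sub-cluster 3. In fibroblasts Id4 had a ratio of 0.988 (0.782 to 1.24) and in endothelial cells 0.870 (0.474 to 1.64). U2af2, a splicing factor, had 61 and 23 UMIs, a ratio of 2.69 (1.64 to 4.56), and Rsrc1, a serine-arginine protein of splicing, 2.18 (1.36 to 3.58). Lgr4, a receptor of R-spondins, had 58 and 23 UMIs, but its ratio was 1.37 (0.764 to 2.51) without sub-cluster 3. Intervals there also included 1 for Sox4 (1.40, 0.677 to 2.97), Cks1b (1.49, 0.635 to 3.67) and C1qtnf12 (1.36, 0.784 to 2.38). The same held for Slc16a7 (1.32, 0.780 to 2.28) and Ttc14 (1.71, 0.954 to 3.17). Those of Vtn, Id4, U2af2, Zrsr2, Rsrc1 and Vamp3 stayed above 1.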

How the data were processed

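The deposited matrices hold UMI counts per gene and barcode, which the authors made with Cell Ranger (4.0.0 in the file headers) on mm10 (GRCm38), 31053 genes. The barcodes had at least 500 UMIs. Here barcodes with at least 800 UMIs, 300 genes and at most 20% mitochondrial UMIs were kept, 97.1% in metformin and 95.4% in control. Scrublet doublets (expected rate 8%) were called and left in, except in 1 alternative. Counts were summed per library and compared as CPM, with exact conditional binomial intervals for ratios, Poisson intervals for levels and Clopper-Pearson intervals for shares. Ratios were taken for genes with at least 20 UMIs in both libraries together, and genes at 2-fold or more were counted, with no test, since each condition has 1 library. A count of 0 was set to a floor of 3 UMIs over the library for ratios on the log2 scale. The members were clustered with Leiden (resolution 0.5, 15 components, 15 neighbours). A marker counted as enriched in a sub-cluster at 1.5-fold and in 10% of its cells.

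Genes named were those of the rule, the 15 with the highest lower fold over other barcodes at 50 CPM or more, the 12 highest and 12 lowest ratios among genes with at least 60 UMIs, 50 CPM and 5% of cells and at most 25% of UMIs in 1 cell, and in each list those with the largest ratios and highest levels. Members, lists and markers were chosen with earlier results of these data known. Alternatives were the gene and mitochondrial limits, doublets, a stricter marker or keratin limit, cells with Pdgfra or Lum, thinning to 1500 UMIs, the mean over cells, centring, the UMI minimum, resolution 1 and, chosen after seeing the data, leaving out sub-cluster 3. The ratio intervals were tested on data simulated with counting error only. That simulation leaves out the spread between cells and animals, so that it cannot show how well the intervals cover in these data. Promoters came from RefSeq and gene positions from GENCODE M21, both on GRCm38. Python 3.11.15, numpy 2.4.6, scipy 1.17.1, pandas 2.3.3, scanpy 1.11.5, scikit-learn 1.9.0, leidenalg 0.10.2 and matplotlib 3.10.9 were used. A few genes that the naming rule selects are not reported here.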

Additional observations from a re-analysis of the deposited data

Results flagged for a closer look

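Interstitial matrix genes differed in direction between the smooth muscle and pericyte cells and the fibroblasts of the same 2 libraries. Their median log2 ratio of metformin over control was -0.47 in the 383 cells and 0.10 in fibroblasts, and the difference was not tested. Without sub-cluster 3, whose cells also carried fibroblast and epidermal genes, the median was 0.47. Endothelial cells had a median of -0.90 and dermal sheath cells one of -0.03, so that a lower value was not particular to the 383 cells.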

How the results depend on the processing

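No paired analysis was possible because metformin and control are 1 library each, and for the same reason no library could be left out. The difference in the share of kept barcodes stayed within its counting interval under all 7 alternatives, with the other sign in 5 of them. Genes at least 2-fold higher, 287 in the main count, numbered 179 with 300 to 3000 genes and at most 8% mitochondrial UMIs, 112 after thinning to 1500 UMIs, 158 without sub-cluster 3 (chosen after seeing the data), 73 at a minimum of 50 UMIs and 1044 at a minimum of 5 UMIs. Those at least 2-fold lower, 346, numbered 181, 153, 145, 124 and 873 under the same settings and 198 with doublets left out. The share of these genes that were higher was 45.3%, and 57.4% with doublets left out.

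Of 202 list medians, 193 stayed within the counting range of the main value, but 25 had the other sign than the main value. Apart from the 2 lists below, those were lists whose main median lay between -0.18 and 0.09. Interstitial matrix, -0.47, was -0.059 with the gene limit, 0.25 without cells holding Pdgfra or Lum, 0.091 after thinning and 0.47 without sub-cluster 3. Insulin-like growth factor binding, -0.61, was -0.056 without doublets, 0.075 with the gene limit, 0.039 without Pdgfra or Lum cells, 0.056 after thinning and 0.072 without sub-cluster 3. Of 204 values of single genes, 154 stayed, 47 moved and 3 changed sign: the log2 ratio of Cks1b was -0.29 with Krt5 and Krt14 under 5 UMIs, that of Dmkn 0.051 after thinning and that of Calm4 0.22 without sub-cluster 3. The cause was not tested. Genes near 20 UMIs have ratio intervals that often span more than 2-fold either way, so that the counts past 2-fold depend on the minimum chosen.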

Other observations

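Outside sub-cluster 3, further genes stood out that the lists do not hold, chosen after their values were seen. Dnajb5, a co-chaperone, had 45 UMIs in metformin and 15 in control cells, a ratio of 2.79. Bmp2, a bone morphogenetic protein, had 27 and 54 UMIs, a ratio of 0.465. Rasd1, a dexamethasone-induced Ras-like protein and a leading gene of sub-cluster 1, had 61 and 118 UMIs, a ratio of 0.481.

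The metallothionein Mt1 was higher in metformin over all 383 cells (3508.4 against 2793.0 CPM, a ratio of 1.26, 1.19 to 1.32) and lower outside sub-cluster 3, at 0.871 (0.817 to 0.929). Markers of dermal papilla summed to 409 CPM in metformin and 56.5 CPM in control cells over all 383 cells, and to 85.4 and 49.0 CPM without sub-cluster 3. They were found in 28 metformin and 36 control cells. The endothelial markers Pecam1, Kdr and Emcn were at 0 in both libraries, Pecam1 through the rule.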
